A study of Rattus norvegicus with 15 samples.

Results

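The comparison set Rat1a cells expressing the MYC mutant K158R (the R158 line) against Rat1a cells expressing the MYC mutant K323R (the R323 line). In each mutant 1 lysine (K), at the residue its name gives, was replaced by arginine (R). The members of the comparison were the 3 R158 and 3 R323 libraries, by their titles, which made 6 of the 15 libraries of the series, and every gene that passed a filter on low counts, 13676 of 32545. Rat1a is an immortalized rat fibroblast line, although the labels also list the cells as normal primary fibroblasts. Each construct was carried by 1 stable line grown in medium with serum, and the 3 replicates were cultures of that line. All MYC constructs were of the mouse sequence. The 9 other libraries came from a line with MYC K149R (R149), a line with wild-type MYC (WT) and a line with an empty vector (EV), each with 3 replicates. None of the labels describes a treatment or a way to switch MYC off, and the cells' own rat Myc gene was not described as altered. The p-values below measure the spread between cultures of a line, so the effect of a substitution and the identity of the stable line that carries it cannot be told apart.

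As a transcription factor, MYC pairs with MAX on DNA and raises or lowers many RNAs linked to growth. Acetyltransferases such as p300 and GCN5 acetylate MYC on several lysines. Arginine keeps the positive charge of lysine but cannot be acetylated. In human MYC the lysine changed in K323R belongs to the main nuclear localization signal, while that changed in K158R lies in the amino-terminal part of the protein. In fibroblasts such as Rat1a, MYC is known for driving transformation. A direct comparison of both substitutions asks whether the position of the lysine mattered for the RNAs that differ.

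The R158 libraries held 13303631, 29344836 and 16872494 counts in genes, and the R323 libraries 18267503, 33464561 and 20253401. After thinning to 13303631 counts each, between 15056 and 15530 genes were detected in the 6 libraries. Among all 15 libraries R149 replicate 1 stood apart with 13658 genes, against 14850 in WT replicate 1, the next lowest. It enters the shared estimate of the spread and the R149 means below. The libraries did not group cleanly by line. R158 replicate 1 correlated more strongly with R323 replicate 1 (r = 0.9856 over log2 CPM, which are counts per library total after scaling by trimmed mean of M values) than with R158 replicates 2 and 3 (r = 0.9819 and 0.9838). R158 replicate 3 correlated equally with R158 replicate 2 and with R323 replicate 2 (r = 0.9886 for each). R323 replicates 2 and 3 were the closest pair, at r = 0.9955. The files list genes by rat Ensembl identifier without names, and 0 identifiers could be paired with a symbol. Genes are therefore described as groups, and 2 rises and 2 falls, the largest by fitted log2 fold change, by identifier. The level of Myc, the markers of fibroblasts and of other cell types, and the gene lists for MYC functions could not be read.

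Few genes were called different between R158 and R323. Of 13676 genes, 79 were higher and 49 lower in R158 at an edgeR adjusted p below 0.05, which is 0.936% of the genes tested (0.578% higher and 0.358% lower). Of these, 44 were higher and 19 lower by at least 2-fold (0.461% of the genes tested, 0.322% higher and 0.139% lower). The larger differences were mostly rises: 31 genes differed by at least 4-fold, and 26 of them were higher in R158. Of the 79 higher genes, 5 had 0 counts over the R323 libraries and 5 had 1 to 3, which leaves their fold changes uncertain. A mean under 1 CPM was found for 13 higher and 2 lower genes. With genes at 0 counts set at a bound of 3 counts, 26 rises of at least 4-fold remained. The 3 R158 libraries did not overlap with the 3 R323 libraries for any of the 128 called genes, a separation shown by 19.5% of all genes tested. An unadjusted edgeR p below 0.05 was found for 2262 of the 13676 genes tested. The count called is therefore not a count of all genes that differ. Deviations from the line mean correlated at 0.499, 0.128 and 0.326 between R158 and R323 libraries of numbers 1, 2 and 3. Replicates 2 and 3 matched more closely across numbers, at 0.206 for R158 replicate 2 with R323 replicate 3 and 0.353 for the reverse. A fit that took the replicate number as a block called 471 genes, 260 higher and 211 lower in R158. With the block, 75 were higher and 33 lower by at least 2-fold. The count rested on a few libraries, since it was 40 without R158 replicate 2, 31 without R323 replicate 2 and 38 without R323 replicate 3. Without R149 replicate 1 the count was 188, of 13702 genes tested. That library is not part of the contrast but enters the filter, the scaling and the shared spread. With replicates 2 and 3 of every line alone it was 1274.

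**Figure D1:**
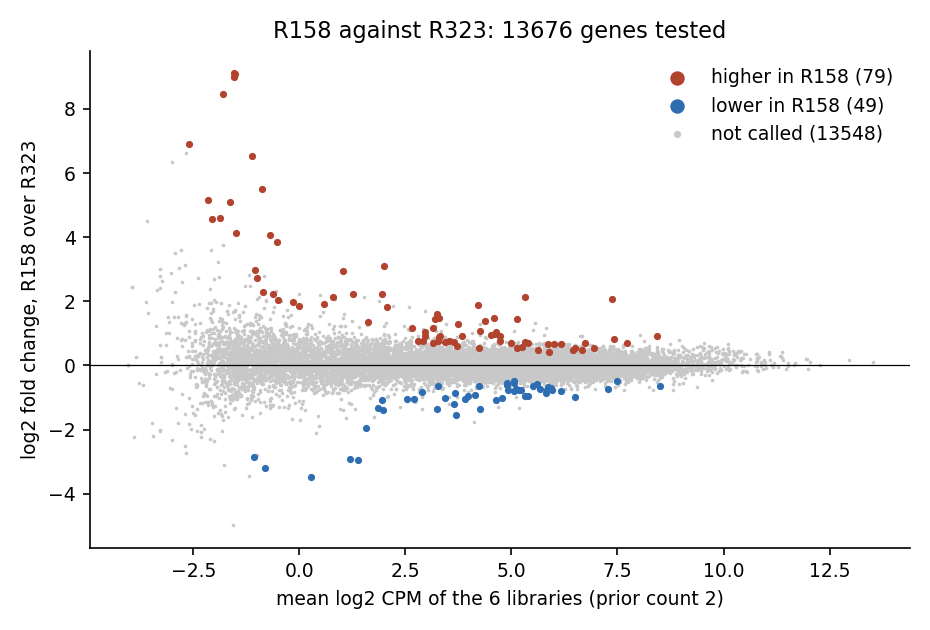
The log2 fold change of R158 over R323 is plotted against the mean log2 CPM of the 6 libraries, with 1 point for each of 13676 genes. The 79 genes higher in R158 are red and reach further from 0 than the 49 genes lower in R158, which are blue.

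For the 79 genes higher in R158 the median log2 fold change was 1.17. It was 1.17 too when the 5 genes with 0 counts in R323 were set at their lower bound. Those bounds also lay above the median, so they could not move it. For the 49 lower genes the median was -0.86, beside a median of 0.01 over all genes tested. Genes were ranked into quartiles by their level in the 9 libraries of the other lines, which were not among the libraries contrasted. Among the least abundant quartile, with a median of 1.09 CPM, 0.702% of genes were higher and 0.205% lower in R158. In the second quartile (median 12.4 CPM) these shares were 0.76% and 0.526%, in the third (39.7 CPM) 0.526% and 0.556%, and in the most abundant (126 CPM) 0.322% and 0.146%. Genes of at least 2-fold difference numbered 31 in the least abundant quartile, 24 higher and 7 lower, and the most abundant quartile held 2 higher and 0 lower. Low counts limit this gradient, because the median standard error of the log2 fold change was 0.45 in the least abundant quartile and 0.13 in the most abundant.

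For most genes the data bounded the difference between the lines. The 95% interval of the fold change lay within 2-fold in either direction for 10668 genes (78%) and within 1.5-fold for 6858 genes (50.1%). In the most abundant quartile 97.7% of genes were bounded within 2-fold, and in the least abundant 28.3%. For the other genes the interval reached 2-fold or more, or was not computed because the 6 libraries held under 10 counts in all.

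Among the called genes with a mean of at least 1 CPM over the 6 libraries, the identifiers given are those with the largest fitted log2 fold changes. For rises from 0 counts these fitted values depend on the prior count, so they do not establish which rise was largest. ENSRNOG00000038115 had 14, 74 and 42 counts in R158 replicates 1, 2 and 3, against 0 counts in each R323 library. These counts were 1.1, 2.61 and 2.44 CPM in R158. The R149, WT and EV libraries also held 0 counts each, so the RNA was detected in no line other than R158. The gene thus passed the filter on low counts only through the R158 libraries. Against a floor of 3 counts over the R323 libraries, its level was at least 54.4-fold higher in R158 (edgeR adjusted p 0.016, between 0.00043 and 0.37 over 18 alternatives). The call was lost with DESeq2 (adjusted p 0.37) and without R158 replicate 2, R323 replicate 2 or R323 replicate 3 (edgeR adjusted p 0.11, 0.067 and 0.063).

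ENSRNOG00000018992 stood at 1.41, 2.12 and 2.5 CPM in the R158 libraries, against 0 counts in each R323 library. It was at least 50.6-fold higher in R158 (edgeR adjusted p 0.00015) and was called under all 18 alternatives, at adjusted p between 3.3e-08 and 0.0087. In the other lines it was present, at 2.29 ± 0.319 CPM in R149, 0.843 ± 0.387 CPM in WT and 9.3 ± 0.988 CPM in EV (SD, n = 3 each). The gene was thus lower than in EV in R158 by a log2 fold change of -2.19 ± 0.31 (SE, edgeR adjusted p 0.00036), while in R323 no read was counted. Against the same floor, its level in R323 was at least 224-fold lower than in EV.

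ENSRNOG00000010248 had the largest fall by fitted log2 fold change, with 0.157, 0.423 and 0.407 CPM in R158 and 2.87, 4.63 and 4.36 CPM in R323. Its log2 fold change was -3.49 ± 0.73 (SE, edgeR adjusted p 0.032), and its mean was 12-fold lower in R158. It averaged 2.09 ± 1.22 CPM in R149, 0.87 ± 0.363 CPM in WT and 0.759 ± 0.878 CPM in EV (SD, n = 3 each). R158 lay below and R323 above these 3 averages. The R149 libraries were spread from 0.679 to 2.86 CPM and the EV libraries from 0.161 to 1.77 CPM. Over 18 alternatives its adjusted p ranged from 0.00011 to 0.17. The call was lost with limma-voom (adjusted p 0.1), without R158 replicates 1, 2 and 3 (edgeR adjusted p 0.083, 0.17 and 0.066) and without R323 replicates 2 and 3 (0.12 and 0.11).

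ENSRNOG00000025151 had 1.18, 0.564 and 1.1 CPM in R158, against 6.48, 6.62 and 7.92 CPM in R323. Its log2 fold change was -2.93 ± 0.61 (SE, edgeR adjusted p 0.041). It was rarer in the other lines, at 0.608 ± 0.502 CPM in R149 and 0.117 ± 0.0531 CPM in WT (SD, n = 3 each), with 0 counts in all EV libraries. The means of R158 and R149 lay near each other, although R149 replicate 1 held 0.0283 CPM, against 0.896 and 0.899 CPM in R149 replicates 2 and 3. R323 was the highest line (log2 difference of R323 over WT 5.86 ± 0.75, edgeR adjusted p 0.0011). The adjusted p for R158 against R323 ranged from 0.00027 to 0.25 over 18 alternatives. The call was lost without any 1 of the 6 libraries compared, at edgeR adjusted p of 0.073, 0.25 and 0.068 without R158 replicates 1, 2 and 3 and 0.054, 0.14 and 0.17 without R323 replicates 1, 2 and 3.

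**Figure D2:**
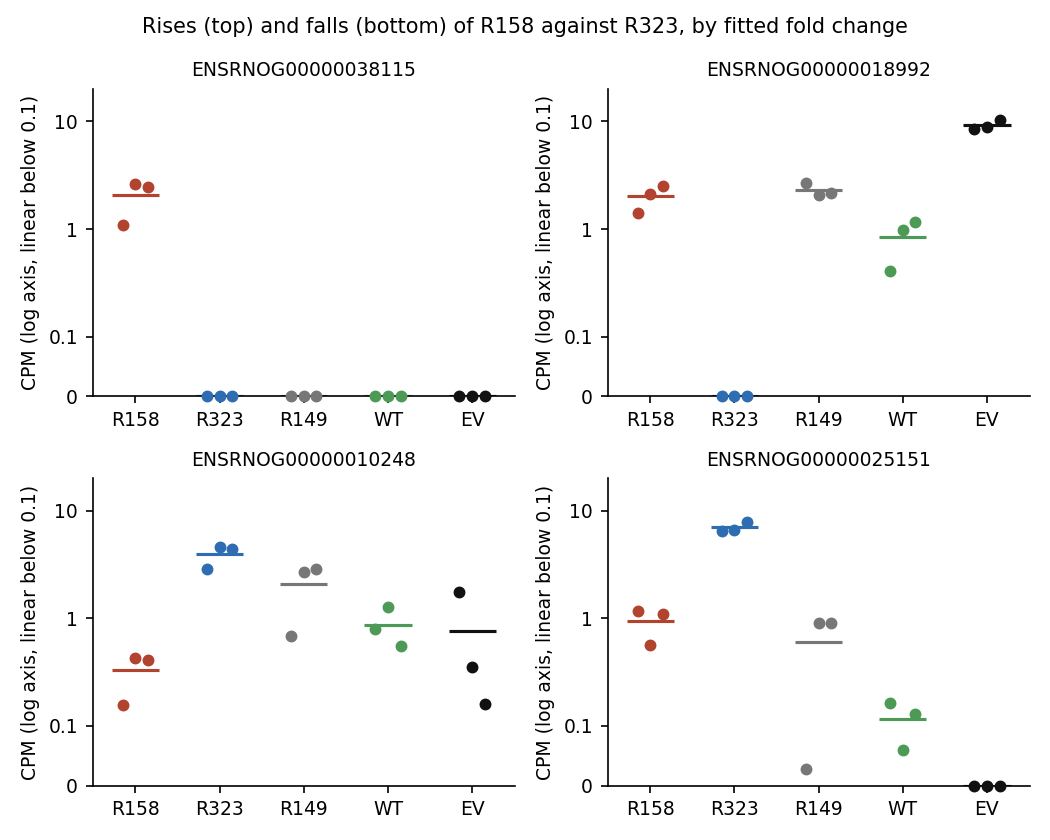
CPM of the 2 rises (top) and 2 falls (bottom) of R158 against R323 with the largest fitted log2 fold changes is shown for every library of the 5 lines on an axis that is logarithmic above 0.1 and linear below, with a bar at the mean of 3 libraries. R158 and R323 points do not overlap in any panel, and both rising genes sit at 0 in R323.

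Some genes were close to silent in R323 while present in R158. Of the 79 higher genes, 7 were below 0.1 CPM in every R323 library and averaged at least 1 CPM in R158, where their means ran from 1.07 to 2.88 CPM. The reverse, every R158 library below 0.1 CPM and an R323 mean of at least 1 CPM, was found for 0 of the 49 lower genes. The other lines differed on these 7 genes. Their means reached 1 CPM for 1 gene in R149, 2 genes in WT and 4 genes in EV, and 2 genes were below 0.1 CPM in every library of each of these 3 lines. Over all genes tested, 2 genes reached 1 CPM in every R158 library while staying below 0.1 CPM in every library of the 4 other lines, and 1 of them was ENSRNOG00000038115. The same pattern was found for 0 genes in R323, R149, WT and EV. A gene of this pattern passes the filter on low counts only through the line where it is high. These counts are therefore given as a description.

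For most of the 79 genes higher in R158, EV stood closer to R158 than to R323. Their median level was 13.8 CPM in R158 and 7.21 CPM in R323, beside 8.87 CPM in R149, 10.2 CPM in WT and 14.3 CPM in EV. The EV mean lay nearer R158 for 61 genes and nearer R323 for 18. It was above both lines for 46 of the 79 genes, beside 5531 of the 13676 genes tested. The WT mean lay nearer R158 for 42 and nearer R323 for 37, and the R149 mean nearer R158 for 25 and nearer R323 for 54. Over all genes tested the mean lay nearer R158 for 51.8% in EV, 43.5% in WT and 53.8% in R149, against 77.2%, 53.2% and 31.6% of the 79 genes. The EV, WT and R149 levels were not part of the contrast, but these libraries helped to set the spread used in the test, and the positions are given as a description. Averaged over the 79 genes and set against the mean of the 6 libraries compared, the log2 level was 0.85 ± 0.12 in R158 and -0.85 ± 0.07 in R323, whose libraries chose the genes (SD, n = 3 each). The same average was -0.32 ± 0.12 in R149, 0.19 ± 0.11 in WT and 0.84 ± 0.03 in EV.

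Calls against EV describe the same genes line by line. In R158, 25 of the 79 were called lower than EV (31.6%, where 14.1% of all genes tested were lower) and 18 higher (22.8%, against 14.4% of all genes), with a median log2 fold change of -0.21. In R323, 62 were called lower than EV (78.5%, against 15.7%), with a median of -1.4. These contrasts share the EV libraries with each other and the R158 and R323 libraries with the choice of genes. WT and R149 entered the choice through the filter, the scaling and the shared estimate of the spread and not through the contrast. In WT, 40 of the 79 genes were called lower than EV (50.6%, against 14.1% of all genes), and in R149, 52 were (65.8%, against 20.2%). Both lines had lowered 37 of the 79 genes (46.8%), where both lowered 12.6% of all genes tested.

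The 49 genes lower in R158 had median levels of 19.3 CPM in R158 and 36.2 CPM in R323, beside 21.7 CPM in R149, 25 CPM in WT and 21.3 CPM in EV. R323 had the highest of these medians. The mean of the third line lay nearer R158 for 31 genes in R149 (63.3%), 30 in WT (61.2%) and 34 in EV (69.4%), beside 53.8%, 43.5% and 51.8% of all genes tested in R149, WT and EV. Averaged over the 49 genes on the same scale, the log2 level was -0.55 ± 0.09 in R158 and 0.55 ± 0.08 in R323, with -0.23 ± 0.06 in R149, -0.20 ± 0.06 in WT and -0.35 ± 0.15 in EV between them (SD, n = 3 each). In R158, 13 of the 49 were called lower than EV (26.5%, against 14.1% of all genes), with a median log2 fold change of -0.29. In R323, 33 were called higher than EV (67.3%, against 14.1%), with a median of 0.55. The median log2 fold change of these genes against EV was -0.01 in R149 and 0.08 in WT.

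**Figure D3:**
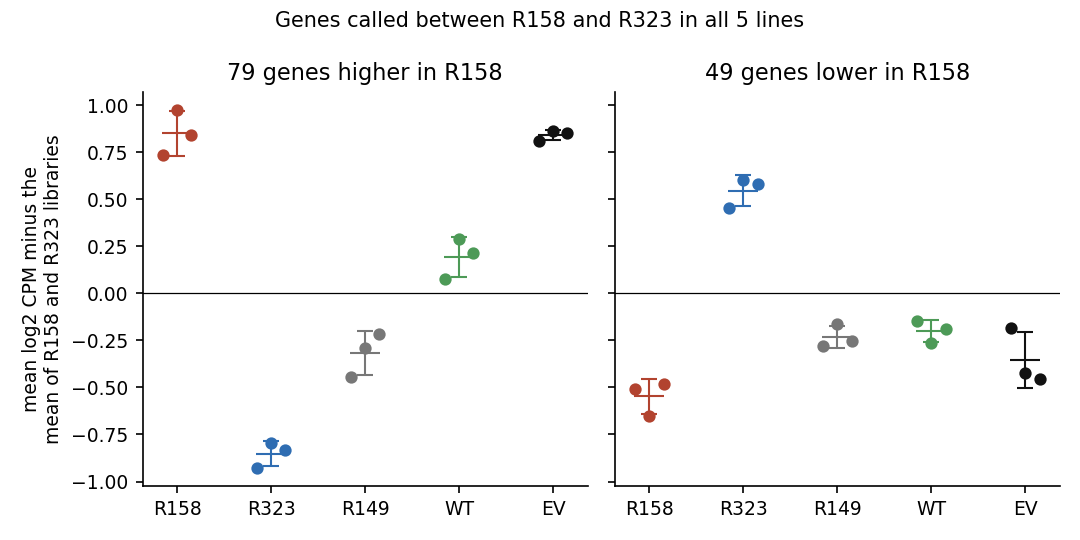
Each point is 1 library, giving the log2 CPM averaged over the 79 genes higher in R158 (left) or the 49 genes lower in R158 (right), minus the mean of the 6 R158 and R323 libraries, with bars at mean ± SD of 3 libraries. R158 and R323 separate by the choice of genes; on the left the EV points lie at the height of R158 and R149 below 0, and on the right R149, WT and EV lie below 0.

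Calls against WT are given as a description, since the R158 and R323 libraries that chose the genes enter them, which raises such shares by construction. Of the 79 higher genes, 16 were called higher than WT in R158 (20.3%, against 0.285% of all genes) and 25 lower than WT in R323 (31.6%, against 0.563%). Of the 49 lower genes, 5 were called lower than WT in R158 (10.2%, against 0.314% of all genes) and 14 higher than WT in R323 (28.6%, against 0.329%). With the replicate number as a block the 4 counts were 27, 34, 9 and 22. The 16 became 7 without WT replicate 2, 5 without WT replicate 3, 6 without R158 replicate 2 and 9 without R158 replicate 3. The 25 became 16 without WT replicate 2 or R323 replicate 3, and the 14 became 7 without WT replicate 2 or 3, 8 without R323 replicate 2 and 9 without R323 replicate 3. The 5 became 1 without WT replicate 3, 2 without R158 replicate 2 and 3 without R158 replicate 1 or 3.

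Genes that wild-type MYC lowered by at least 2-fold were on balance less low in R158 than in R323. WT lowered 690 genes by at least 2-fold against EV (5.05% of the genes tested) in a contrast of WT with EV. The R158 and R323 libraries entered this list through the filter, the scaling and the shared estimate of the spread and not through the contrast. Of these, 28 were higher in R158 than in R323 (4.06%, against 0.578% of all genes) and 2 were lower (0.29%, against 0.358%). The median log2 difference of R158 over R323 was 0.27, beside 0.01 over all genes tested, and the difference was above 0 for 70.1% of the list, beside 51.3% of all genes. Set against EV, the median of the 690 genes was -1.45, -1.32 and -1.21 in R158 replicates 1, 2 and 3 and -1.62, -1.5 and -1.5 in R323 replicates 1, 2 and 3. The 3 R158 libraries were all above the 3 R323 libraries, although R158 replicate 1 lay close to R323 replicates 2 and 3. Replicates of 1 line could spread by more than R158 and R323 libraries of equal number differed. The median ran from -1.8 to -1.34 in WT, whose libraries chose the list, and from -2.02 to -1.65 in R149. In EV, the reference, it ran only from -0.06 to 0.09. Between libraries of equal number the median difference was 0.19, 0.25 and 0.27 for numbers 1, 2 and 3, where it was 0.01, 0.02 and 0 over all genes.

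The median of the genes that WT lowered by at least 2-fold lay above that of all genes at each level of abundance. From the least to the most abundant quartile the median log2 difference of R158 over R323 was 0.29, 0.24, 0.26 and 0.23, over 391, 206, 62 and 31 genes, beside 0.09, 0.01, -0.02 and 0 over all genes of the same quartile. Over all 1933 genes called lower in WT than in EV at any fold (14.1% of the genes tested), the difference was smaller outside the least abundant quartile, with quartile medians of 0.27, 0.07, 0.07 and 0.04. Between libraries of equal number the median of these 1933 genes was 0.05, 0.09 and 0.13 for numbers 1, 2 and 3. For the 690 genes the median stayed between 0.2 and 0.29 over 18 alternatives. The count of 28 became 54 with the replicate number as a block, 13 without R158 replicate 2, 7 without R323 replicate 2 and 10 without R323 replicate 3. When the list itself was drawn without EV replicate 2, 18 of 591 genes were higher in R158. The 1247 genes that R149 lowered by at least 2-fold against EV (9.12% of the genes tested), a list that overlaps the first and shares its EV libraries, had a median of 0.22 with 67.7% above 0.

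For genes that WT raised by at least 2-fold the median lay near 0 and the lines overlapped, and the difference from the WT-lowered genes was not tested. Their median log2 difference of R158 over R323 was -0.07 over 242 genes (1.77% of the genes tested), between -0.15 and -0.04 over 18 alternatives, and 43.8% of them were above 0. Between libraries of equal number it was 0, 0.01 and -0.24. Set against EV, the median of these genes was 1.19, 1.32 and 1.16 in R158 replicates 1, 2 and 3 and 1.19, 1.23 and 1.3 in R323 replicates 1, 2 and 3. Of the 242 genes, 5 were called higher and 3 lower in R158 (2.07% and 1.24%, against 0.578% and 0.358% of all genes). The 5 became 3 without R158 replicate 2 and 2 without R323 replicate 2 or 3, and 8 without R149 replicate 1. The 3 became 0 without R158 replicate 2 or R323 replicate 2 and 1 without R158 replicate 3 or R323 replicate 3. With the replicate number as a block the counts were 9 and 10. At any fold, 1728 genes were called higher in WT than in EV (12.6% of the genes tested). From the least to the most abundant quartile their median log2 differences were -0.03, -0.06, -0.07 and -0.06. The shares above 0 were 45.5%, 39%, 37% and 37.1%. All genes of the same quartile had medians of 0.09, 0.01, -0.02 and 0, and shares of 57.9%, 50.9%, 46.5% and 49.8%. Between libraries of equal number the median of the 1728 genes was 0, -0.11 and -0.07. Among the 10015 genes not called between WT and EV, 0.33% were higher and 0.32% lower in R158, and the median was 0.01.

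**Figure D4:**
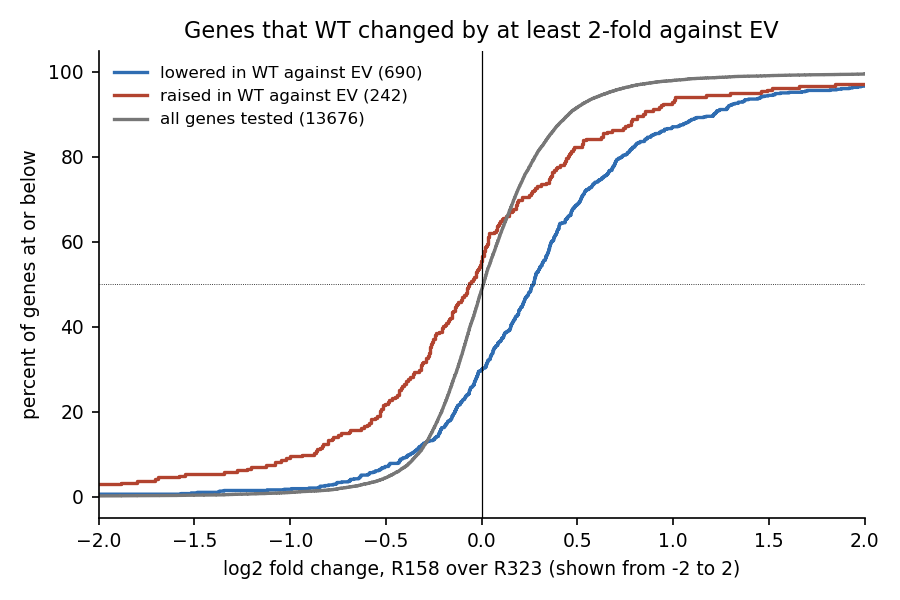
The cumulative percent of genes is drawn against the log2 fold change of R158 over R323 for the 690 genes lowered and the 242 genes raised by WT against EV, and for all 13676 genes tested. The curve of the lowered genes crosses 50 percent at 0.27, to the right of the other curves, and the curve of the raised genes crosses it at -0.07.

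The number of genes called between R158 and R323 was of the same order as in the other contrasts among MYC lines. At the same threshold 0.936% of genes differed between R158 and R323, 1.27% between R149 and R158, 1.07% between R149 and R323, 1.18% between R149 and WT, 0.6% between R158 and WT and 0.892% between R323 and WT. These counts share libraries and were not tested against each other.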

How the data were processed

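The authors deposited 1 table of raw counts per library, whole numbers for 32545 rat Ensembl genes without normalization. TopHat2 2.1.0 and the build Rnor_6.0 appear in the submitters' processing notes, and a stranded dUTP mRNA kit in the labels' protocols. How reads were counted, with which strand setting and annotation, is not given in the sources used here, so overlapping, antisense or near-identical genes are uncertain. Counts were tested with edgeR 4.0.16 (R 4.3.3): filterByExpr (minimum 10 counts), TMM scaling, 1 quasi-likelihood fit of all 15 libraries with the line as the only term, R158 minus R323, Benjamini-Hochberg adjustment over 13676 genes. The biological coefficient of variation was 16.1%. No added standard was stated, so changes are relative to other RNAs. The procedure was tested on simulated data. It called 18 of 67 genes changed by 1.5-fold, 47 of 67 changed by 2-fold and 62 of 66 changed by 4-fold. Of its 133 calls, 6 were genes left unchanged. Log2 CPM used a prior count of 2. Alternatives were DESeq2 1.42.0, limma-voom (limma 3.58.1), other scaling and filters, fewer libraries and the block. Replicate numbers come from the labels: deviations of R158 and R323 libraries of equal number correlated at 0.499, 0.128 and 0.326, over 0.1 in every pair, although R158 replicate 2 matched R323 replicate 3 (0.206) and R158 replicate 3 matched R323 replicate 2 (0.353) more closely. No replicates agreed within counting noise (chi-square per degree of freedom at least 4.24). Named identifiers were called, averaged at least 1 CPM over the 6 libraries and had no overlap between the lines and the largest fitted fold changes; the symbols the rule also asked for were not available, and the gene lists could not be used. The comparison, lists and tests were chosen with earlier results of these data known.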

Additional observations from a re-analysis of the deposited data

Results flagged for a closer look

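Among the 128 genes that differed between R158 and R323, 3 were called higher than EV in R158 and lower than EV in R323. For these the 2 MYC lines lay on opposite sides of EV. Over all 13676 genes tested such opposite calls were found for the same 3 genes. Their log2 fold changes against EV were 0.32, 3.47 and 1.45 in R158 and -0.27, -5.51 and -1.65 in R323. The value of -5.51 rests on 0 counts in R323 and a low level in EV. The difference between the lines was itself tested (edgeR adjusted p 0.0074, 0.0018 and 0.00029). The first averaged 46.7 ± 3.37 CPM in R158 and 31 ± 1.34 CPM in R323, beside 37.4 ± 1.33 CPM in EV (SD, n = 3 each). The second averaged 1.89 ± 0.416 CPM in R158, had 0 counts in R323 and averaged 0.173 ± 0.0361 CPM in EV. The third averaged 11.9 ± 4.47 CPM in R158 and 1.37 ± 0.327 CPM in R323, beside 4.35 ± 1.14 CPM in EV. Their WT means were 35.4, 0.49 and 4.77 CPM. These genes were singled out after their values were seen, and they carry identifiers without a name.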

How the results depend on the processing

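The sign of the difference was kept for all 128 genes, or for those still tested (124 with the stricter filter, 126 with the 6 libraries alone), under every alternative, but the number called moved. The values are, in order, genes called, genes called with at least 2-fold difference, and genes lowered in WT that were higher in R158, which were 128, 63 and 28. They were 424, 111 and 55 with DESeq2, 471, 108 and 54 with a replicate block, and 273, 118 and 50 with the block in the 6 libraries alone. With replicates 2 and 3 alone they were 1274, 260 and 138, and with a block added to these, chosen after seeing the data, 1364, 256 and 135. The 6 libraries alone gave 71 genes called and 17 of the WT-lowered genes, and limma-voom gave 17 of the WT-lowered genes. Leaving out 1 library (each R158 or R323 library, or R149 replicate 1) gave 31 to 188 genes, 23 to 89 with at least 2-fold difference, and 7 to 36 WT-lowered genes. Without R323 replicate 1, 74 genes were higher and 84 lower in R158, the reverse of the order with all libraries. The cause of these changes was not tested. Other scaling, the absence of a filter and a stricter filter gave 110 to 170 genes, and no scaling moved the share of higher calls by over 10 percentage points. Of the genes called here, DESeq2 called 127 and the blocked fit 128. For called genes, the share whose third-line mean lay nearer R158 was 51.4% for WT, 48.2% for R149 and 70.3% for EV with the block, and 51.4%, 47.4% and 69.8% with DESeq2, against 56.2%, 43.8% and 74.2%. The 4 identifiers kept their call with the block. Genes below about 1 CPM are limited by depth.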
